A study of Mus musculus with 4 samples.

Results

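Chemokines and their receptors were followed in the gastrocnemius muscle of mice. They were taken as every row whose gene symbol starts with Ccl, Ccr, Cxcl or Cxcr and a digit, which gave 58 of the 23282 rows. The 58 rows carry 54 distinct symbols, because Ccl21b, Ccl19 and Ccl21a have further rows, and those further rows held no reads. Of the 58 rows, 41 were ligands and 17 were receptors. Male CDF1 mice, labelled as postnatal day 28, were divided by treadmill exercise (E) and tumor (T) into 4 groups. The mice without a tumor formed the normal control (E-T-) and normal exercise (E+T-) groups. Those with a tumor formed the cancer control (E-T+) group, which did not run, and the cancer exercise (E+T+) group. Exercise was high-intensity aerobic running every other day, and the tumor was raised by injecting CT26 cells, a murine colorectal cancer line, into the tail vein. Hence the muscle was not the injected site, and the methods name no injection for the normal groups. Each group had 1 library. The labels speak of 10 mice per group and the paper of a representative mouse, so whether a library is 1 animal or several is not settled.

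Chemokines are small secreted proteins that draw leukocytes along a gradient, and their receptors are G protein-coupled receptors on the attracted cells. CXC ligands with a Glu-Leu-Arg motif, such as Cxcl1, Cxcl2 and Cxcl5, act on Cxcr2 and recruit neutrophils, whereas CC ligands such as Ccl2 act on Ccr2 and recruit monocytes. Other members, such as Cxcl12, Ccl21a and Ccl27a, are made without inflammation and place cells within tissues. In muscle, chemokines are known for bringing in the neutrophils and macrophages that clear damaged fibres.

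Levels are given as normalized read counts, and differences as log2 fold changes on the log2(normalized read count + 1) scale. The libraries were 3' mRNA libraries, in which a transcript gives reads from its 3' end regardless of its length. Wherever 4 values stand in a row, the first pair is normal control and normal exercise and the second pair is cancer control and cancer exercise. Each library held between 10647523 and 13226100 reads. A row was tested when either of the 2 libraries compared had a normalized read count of 4 or more, and called higher or lower when it also differed at least 2-fold. Since each group had 1 library, no SD and no p-value could be given. A counting interval, the 95% Clopper-Pearson interval of the ratio of the reads, covers counting error only. Where 1 library held 0 reads, the fold was set against a floor of 3 reads and is written as at least that fold, since a fitted fold then depends on the pseudocount. In whole muscle, fewer cells of a type and less RNA per cell cannot be told apart.

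Reads were found for 44 of the 58 rows, and for 27 in every library. The 14 rows without reads were 10 ligand rows and 4 receptor rows, among them Ccl4, Ccl20, Ccl22, Cxcl17, Ccr3, Ccr8 and Cxcr1. Together the members took 0.0655%, 0.0862%, 0.0855% and 0.0927% of all reads in the 4 libraries. Receptors were a small share of this, with 330, 370, 160 and 268 reads in the same order, against 7049, 11027, 8943 and 9958 reads for ligands. Thus the receptor reads were fewest in cancer control. In some library, 30 rows reached a normalized read count of 16, 24 ligands and 6 receptors, and most of these are described one by one.

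The cancer control library stood apart in its keratinocyte genes. All 11 listed keratinocyte markers had reads there, whereas 6, 6 and 7 of the 11 had 0 reads in normal control, normal exercise and cancer exercise. Their summed normalized read count was 245.9, 222.5, 884.7 and 126.1 in the 4 libraries. Flg2, a cornified envelope protein of skin, had 0, 0, 148 and 0 reads. The tumor without exercise and the exercise in tumor-bearing mice comparisons both use this library, and the tumor with exercise and exercise in healthy mice comparisons do not. The part of these genes in any chemokine result was not tested.

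In healthy mice, exercise went with higher values of the CC ligands Ccl2, Ccl7 and Ccl8 and with a lower value of the receptor Cxcr4. Of 36 members tested, 11 were higher (30.6%), against 9.44% of all rows, and 4 were lower (11.1%), against 12.1% of all rows. The interval also excluded no change for 12 of them, or 33.3%, against 17.7% of all rows. Ligands made up 9 of the 11, namely Ccl2, Ccl7, Ccl8, Ccl17, Ccl25, Ccl28, Cxcl1, Cxcl5 and Cxcl10. The receptors Ccr9 and Cxcr3 were also higher, and the 4 lower members were Cxcr4, Ccr6, Cxcr6 and Cxcl11. Of the 10 receptors tested, 2 were higher and 3 were lower.

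With the tumor and no exercise, the neutrophil-attracting ligands Cxcl1, Cxcl2 and Cxcl5 and the B cell ligand Cxcl13 were higher, and Ccr2, Cxcr4 and 4 of the 7 homeostatic CC ligands tested were lower. Of 36 members tested, 12 were higher (33.3%), against 20.9% of all rows, and 11 were lower (30.6%), against 24.2% of all rows. The interval also excluded no change for 21, or 58.3%, against 40.6% of all rows. The higher members were Cxcl1, Cxcl2, Cxcl5, Cxcl10, Cxcl13, Ccl2, Ccl9, Ccl12, Ccl17, Ccr1, Ccr9 and Cxcr5. The lower members included Ccl21a, Ccl21b, Ccl21c, Ccl27a, Cxcl9, Cxcl12, Ccr2, Ccr6, Cxcr4 and Cxcr6. Of the 9 receptors tested, 3 were higher and 5 were lower.

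In tumor-bearing mice, exercise went with lower values of Cxcl1, Cxcl2, Cxcl5, Cxcl10 and Ccl2 and with higher values of Ccl7 and of the receptors Ccr2 and Cxcr4. Of 36 members tested, 7 were higher (19.4%), against 15.6% of all rows, and 12 were lower (33.3%), against 15.1% of all rows. The interval also excluded no change for 17, or 47.2%, against 25.8% of all rows. All 12 lower members were ligands, Ccl2, Ccl5, Ccl8, Ccl12, Ccl17, Ccl19, Ccl21b, Ccl21c, Cxcl1, Cxcl2, Cxcl5 and Cxcl10. Receptors were 4 of the 7 higher members, among them Ccr2, Cxcr4 and Cxcr6, and the higher ligands were Ccl3, Ccl7 and Cxcl15. Of the 8 receptors tested, 4 were higher and 0 were lower. No test across replicates was possible, so that these counts describe these libraries.

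With the tumor in exercised mice, 7 of the 8 homeostatic CC ligands tested were lower, all but Ccl25, and Cxcl13 was higher. For Ccl19 and Ccl28 among the 7, the counting interval included no change (upper bounds 0.10 and 0.18). Ccl21a and Ccl21b share transcript sequence, as do Ccl27a and Ccl27b, so these may not be separate signals. Whether Ccl21c is a separate signal from Ccl21b is not settled either. Of 38 members tested, 9 were higher (23.7%), against 13.9% of all rows, and 14 were lower (36.8%), against 16.3% of all rows. The interval also excluded no change for 18, or 47.4%, against 26.3% of all rows. The higher members were Cxcl1, Cxcl11, Cxcl13, Cxcl15, Ccl3, Ccl6, Ccl12, Ccr1 and Cxcr6. Ligands made up 13 of the 14 lower members, Cxcl5, Cxcl9, Cxcl16, Ccl5, Ccl8, Ccl17, Ccl19, Ccl21a, Ccl21b, Ccl21c, Ccl27a, Ccl27b and Ccl28, and the receptor among them was Cxcr3. Each library enters more than 1 of the 4 comparisons, so these are not independent of each other.

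**Figure D1:**
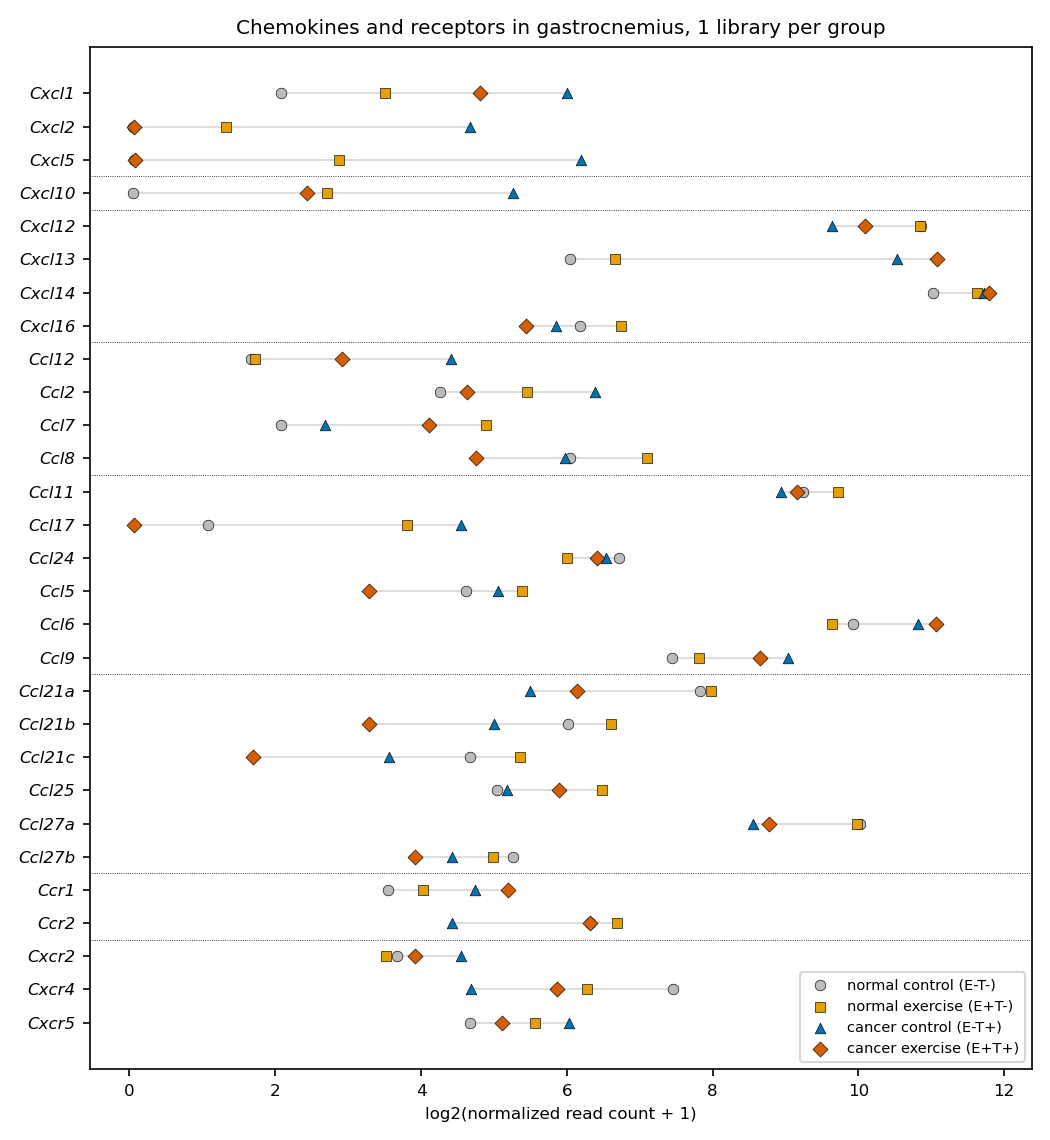
Level of the members described that reached a normalized read count of 16 in some library, 1 point per library, on a log2(normalized read count + 1) axis, in blocks by role. Cxcl13 separates the libraries with a tumor from those without, and the normal control point of Ccr2 (78.67) lies under the cancer exercise point (79.06).

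The 6 ligands with the greatest log2 fold change in any comparison were Cxcl5, Cxcl10, Cxcl2, Cxcl13, Ccl17 and Cxcl1. This order holds at a pseudocount of 1, since 4 of the 6 were set against a library at 0 reads. With a pseudocount of 4, Ccl21b (-2.97) passed Cxcl2 (2.82) and Ccl17 (-2.70). The 250 bases before the start of Cxcl1, Cxcl2 and Cxcl10 are shown (RefSeq, GRCm38.p6), chosen after their values were seen because they hold matches to the kappaB motif, the sequence bound by NF-kappaB. They lie at chr5:90890995-90891244 on the plus strand, chr5:90903649-90903898 on the plus strand and chr5:92348890-92349139 on the minus strand, and are written 5' to 3'. Capitals mark matches on either strand to kappaB (GGG, then any 3 bases, then TTCC) and, at 1 place in Cxcl10, to the interferon-stimulated response element (GAAA, then any 2 bases, then GAAA).
Cxcl1: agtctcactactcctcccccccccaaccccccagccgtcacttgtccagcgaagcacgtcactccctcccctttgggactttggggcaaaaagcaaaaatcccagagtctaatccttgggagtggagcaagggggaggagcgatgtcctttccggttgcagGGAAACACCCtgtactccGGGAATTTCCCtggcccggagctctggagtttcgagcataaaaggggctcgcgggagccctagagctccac
Cxcl2: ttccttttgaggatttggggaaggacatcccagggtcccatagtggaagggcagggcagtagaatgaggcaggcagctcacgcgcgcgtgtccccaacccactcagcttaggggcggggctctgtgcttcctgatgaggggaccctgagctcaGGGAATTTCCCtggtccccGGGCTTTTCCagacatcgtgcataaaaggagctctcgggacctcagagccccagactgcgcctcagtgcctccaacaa
Cxcl10: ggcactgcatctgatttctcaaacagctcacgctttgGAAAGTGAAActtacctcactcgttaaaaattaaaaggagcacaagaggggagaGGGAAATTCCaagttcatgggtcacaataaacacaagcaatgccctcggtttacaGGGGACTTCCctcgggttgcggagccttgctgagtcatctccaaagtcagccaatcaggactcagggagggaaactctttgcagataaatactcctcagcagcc
Each of the 3 held kappaB matches at 2 places, with overlapping matches taken as 1 place. In Cxcl1 they began 89 and 71 bases before the start, in Cxcl2 97 and 78, and in Cxcl10 159 and 104.

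Promoters, taken in this window, were found for 38 members, with 45 starts. Cxcl5, Ccl2, Ccl5, Ccl7 and Ccl11 were among the members without one and were not scanned. The kappaB motif matched 9 of these 45 promoters (20%), against 4.65% of 32851 promoters of all genes. The 9 members were Ccl1, Ccl20, Ccl9, Ccr3, Ccr6, Cxcl1, Cxcl10, Cxcl2 and Cxcl3. Ccl1, Ccl20 and Ccr3 among them had no reads in any library. The interferon-stimulated response element matched 3 promoters (6.67% against 2.98%), those of Ccl19, Cxcl10 and Cxcl14. The gamma-activated site (TTC, then any 3 bases, then GAA), matched 4 (8.89% against 7.02%), those of Ccl17, Ccr1l1, Ccr6 and Cxcl14. None of the 3 motifs was found in this window of Cxcl13. A match is a description of letters and no evidence of binding.

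Of the 5 neutrophil-attracting CXC ligands among the members, Cxcl1, Cxcl2 and Cxcl5 were highest in cancer control. Cxcl5 had 0, 8, 68 and 0 reads in the 4 libraries. Cxcl2 had 0, 2, 23 and 0 reads in the same order. Cxcl1, the mouse counterpart of the growth-regulated oncogenes, had a normalized read count of 3.24, 10.4, 63.0 and 27.1. Cancer control was thus the highest library for all 3 genes, while cancer exercise returned to 0 reads for Cxcl5 and Cxcl2 but not for Cxcl1. With the tumor and no exercise Cxcl5 was at least 22.8-fold higher and Cxcl2 at least 7.72-fold higher. Cxcl1 had a log2 fold change of 3.92 (counting interval 2.69 to 6.63). With exercise in tumor-bearing mice Cxcl5 was at least 22.4-fold lower and Cxcl2 at least 7.58-fold lower. Cxcl1 was lower by 1.19 on the log2 scale (counting interval -1.96 to -0.53). With the tumor in exercised mice Cxcl1 was higher by a log2 fold change of 1.30 (counting interval 0.34 to 2.45), and Cxcl5 was at least 2-fold lower. Ppbp, a CXC ligand whose symbol lies outside the member rule, was instead highest in cancer exercise. Its normalized read count was 26.6, 9.56, 64.2 and 87.7 in the 4 libraries. It was called higher in both tumor comparisons and lower with exercise in healthy mice.

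Cxcl15, a ligand known from lung, had a normalized read count of 10.7 in cancer exercise and at most 2.16 elsewhere, and Cxcl3 had 2 reads in cancer exercise and 0 elsewhere. Their receptor Cxcr2 changed less than its ligands. Cxcr2 had a normalized read count of 11.7, 10.5, 22.4 and 14.1 in the 4 libraries, and it was not called in any of the 4 comparisons. Its counting intervals all included no change. Cxcr1, the other receptor of this class, had 0 reads in every library.

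Neutrophil markers were also higher in both tumor libraries. The summed normalized read count of the list was 98.2, 195.7, 2730 and 2046 in the 4 libraries, led by S100a8 and S100a9, subunits of calprotectin. Of 11 markers in the files, 8 were tested and all 8 were higher with the tumor without exercise (20.9% over all rows). The median log2 fold change was 3.17 over markers with reads, against -0.043 over all rows tested. With the tumor in exercised mice 7 were tested and 6 were higher (13.9% over all rows). The granule enzyme gene Elane had 0 reads in every library. Unlike Cxcl5 and Cxcl2, the summed list was still high in cancer exercise. With exercise in tumor-bearing mice 9 markers were tested, and 2 were higher and 3 were lower (15.6% and 15.1% over all rows). From cancer control to cancer exercise S100a8 went from 2054 to 958.4 and S100a9 from 444.4 to 695. The high Cxcl5, Cxcl2 and Cxcl1 values of cancer control stood beside both a high neutrophil sum and the highest keratinocyte sum. The part of neutrophil or keratinocyte content in these ligand differences was not tested.

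Among the ligands of Cxcr3, the receptor of activated T cells, Cxcl10 was high in cancer control. Cxcl10 had 0, 7, 35 and 4 reads in the 4 libraries. It was at least 11.7-fold higher with the tumor without exercise. With exercise in tumor-bearing mice it was lower, by 2.83 on the log2 scale (counting interval -5.07 to -1.63). In healthy mice it was higher with exercise, at least 1.78-fold. Cxcl9, by contrast, had 5, 9, 0 and 0 reads and so had reads only in the libraries without a tumor, although the counting interval without exercise reached no change (upper bound 0.14). Cxcl11 had 6, 0, 9 and 4 reads. Cxcr3 itself had 2, 8, 0 and 0 reads, with the same order as Cxcl9. The last 133 bases of Cxcl10 overlap Art3 on the opposite strand, which had a normalized read count of 939.3, 721.6, 1664 and 2127. The strand setting of the counting is not given in the sources used here, so reads of Art3 and Cxcl10 cannot be told apart in that stretch.

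Cxcl13, which draws B cells into follicles, had the clearest separation by tumor. Its normalized read count was 64.9, 100.3, 1476 and 2171 in the 4 libraries, so that both tumor libraries were above both others. The log2 fold change with the tumor was 4.49 without exercise (counting interval 4.14 to 4.90) and 4.42 with exercise (counting interval 4.17 to 4.71). The gene lies at chr5:95956939-95961068 (GRCm38). Its receptor Cxcr5 had a normalized read count of 24.5, 46.2, 64.2 and 33.6. Cxcr5 was higher with the tumor without exercise, with a log2 fold change of 1.36 (counting interval 0.68 to 2.15), but had -0.45 with the tumor in exercised mice (counting interval -1.14 to 0.19). B cell markers were low throughout, at a summed normalized read count of 17, 42.4, 0.117 and 4.41, and all 6 were at 0 reads in cancer control, where Cxcr5 was highest. The 3' end of Cxcr5 overlaps Bcl9l on the opposite strand by 110 bases, and Bcl9l had a normalized read count of 330.8, 446.6, 463.6 and 499.4, so Cxcr5 is uncertain.

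Cxcl12, the ligand that retains haematopoietic cells in their niches, and its receptor Cxcr4 were both lowest in cancer control. The normalized read count of Cxcl12 was 1861, 1831, 793.6 and 1087 in the 4 libraries. That of Cxcr4 was 174.3, 76.2, 24.7 and 57.4. Normal control was the highest library for Cxcr4, and normal control and normal exercise were nearly equal for Cxcl12. With the tumor and no exercise Cxcl12 fell by 1.23 on the log2 scale (counting interval -1.36 to -1.11) and Cxcr4 by 2.77 (counting interval -3.52 to -2.19). With the tumor in exercised mice the log2 fold changes were -0.75 (counting interval -0.86 to -0.64) and -0.40 (counting interval -0.92 to 0.09), neither of them called. For Cxcr4, exercise went with a lower value in healthy mice, at -1.18 (counting interval -1.58 to -0.82), and with a higher value in tumor-bearing mice, at 1.19 (counting interval 0.49 to 1.99). Fibroblast markers, a cell type known to make Cxcl12, had a summed normalized read count of 78400, 41100, 36130 and 36380. Most of that sum was Dcn, at 57890, 37430, 35360 and 34760. Of the 6 markers, 4 were lower and 0 higher with the tumor without exercise (24.2% and 20.9% over all rows). With exercise in tumor-bearing mice 4 were higher and 0 lower (15.6% and 15.1%). The part of the fibroblast genes in Cxcl12 was not tested.

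Cxcl14, a ligand expressed widely in epithelia and muscle, had the highest level of all members. Its normalized read count was 2084, 3157, 3377 and 3550 in the 4 libraries, and it was not called in any comparison. Normal control was the lowest library, with log2 fold changes of 0.60 for exercise in healthy mice (counting interval 0.52 to 0.68) and 0.70 with the tumor without exercise (counting interval 0.61 to 0.78). Cxcl16, a membrane-bound ligand of Cxcr6, had a normalized read count of 71.2, 106.3, 56.8 and 42.3. It was lower with the tumor in exercised mice, at a log2 fold change of -1.31 (counting interval -1.89 to -0.80). Cxcr6 had only 5, 0, 0 and 4 reads, so that its differences rest on few reads.

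**Figure D2:**
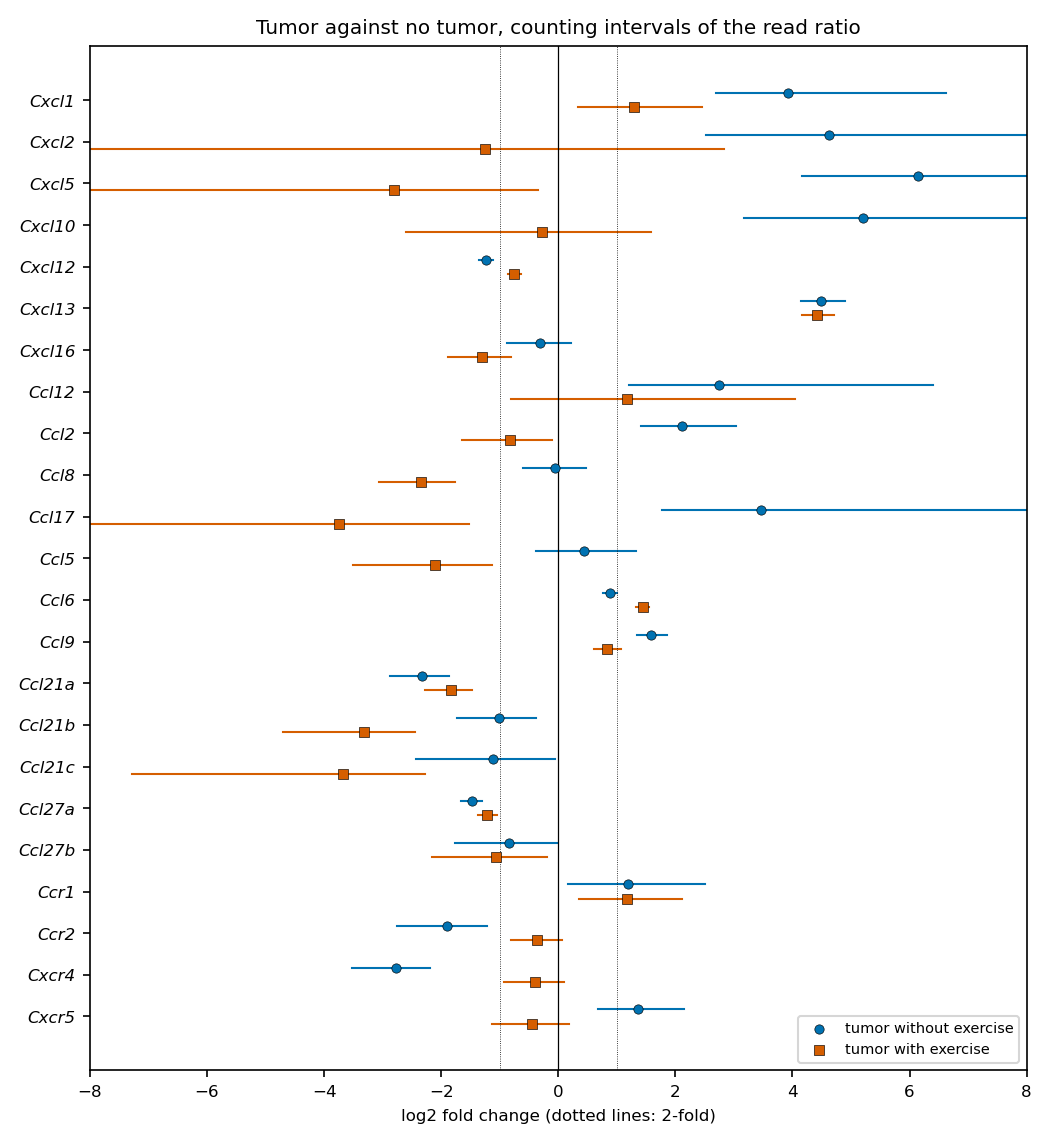
Log2 fold change with the tumor, without exercise (circles) and with exercise (squares), for members shown in the plot of levels and called in at least 1 of the 2 comparisons, with lines for the 95% counting interval and lines running off the axis where a library had few or 0 reads. Cxcl13 lies near 4.49 and 4.42, Ccl21a, Ccl21b, Ccl21c and Ccl27a lie left of the dotted 2-fold line in both, and Cxcl5 and Ccl17 lie on opposite sides.

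The CC ligands listed here as monocyte-attracting, Ccl2, Ccl7, Ccl8 and Ccl12, did not move as 1 group. Ccl2, the main ligand of Ccr2, had a normalized read count of 18.1, 43.0, 82.3 and 23.9 in the 4 libraries. Ccl12, a mouse ligand close to Ccl2, had 2.17, 2.31, 20.2 and 6.52. Both were highest in cancer control. Ccl7 was instead highest in normal exercise, with a normalized read count of 3.24, 28.6, 5.40 and 16.2. Ccl8 too was highest in normal exercise, with 64.9, 136.5, 62.1 and 26.1. Hence 2 of these 4 ligands peaked with the tumor alone and 2 with exercise alone.

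With the tumor and no exercise, Ccl2 had a log2 fold change of 2.12 (counting interval 1.42 to 3.04) and Ccl12 of 2.74 (counting interval 1.21 to 6.40). With exercise in healthy mice Ccl2 was higher by a log2 fold change of 1.20 (counting interval 0.44 to 2.13), Ccl7 by 2.81 (counting interval 1.49 to 5.50) and Ccl8 by 1.06 (counting interval 0.64 to 1.52). Ccl7 was the only member called higher with exercise in both healthy and tumor-bearing mice. In tumor-bearing mice Ccl7 had 1.43 (counting interval 0.07 to 3.42), whereas Ccl2 fell by 1.74 (counting interval -2.55 to -1.09), Ccl12 by 1.5 (counting interval -3.26 to -0.27) and Ccl8 by 1.22 (counting interval -2.01 to -0.55). With the tumor in exercised mice Ccl8 fell by 2.34 (counting interval -3.07 to -1.77). These 4 genes lie in 1 cluster of 6 members from Ccl2 to Ccl1, chr11:82035577-82179812 (GRCm38), which also holds Ccl11 and Ccl1.

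The receptor Ccr2, which marks recruited monocytes, was lowest where its ligand Ccl2 was highest. Its normalized read count was 78.7, 102.3, 20.4 and 79.1 in the 4 libraries. Cancer control was below the other 3 libraries. With the tumor and no exercise Ccr2 fell by 1.90 on the log2 scale (counting interval -2.76 to -1.21). With exercise in tumor-bearing mice Ccr2 was higher by a log2 fold change of 1.90 (counting interval 1.21 to 2.77). With the tumor in exercised mice it was not called, at -0.37 (counting interval -0.81 to 0.06). The gene lies at chr9:124101918-124109140 (GRCm38).

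Ccr1, on the same chromosome, did not follow Ccr2. The normalized read count of Ccr1 was 10.7, 15.3, 25.7 and 35.7 in the 4 libraries, so that both tumor libraries were above both others. The log2 fold change with the tumor was 1.19 without exercise (counting interval 0.16 to 2.50) and 1.17 with exercise (counting interval 0.36 to 2.11). Macrophage markers had a summed normalized read count of 4425, 4313, 7546 and 7089, and Mertk, 1 of the 11, had 0 reads in every library. The other markers were not uniform. Cd68 had 92.6, 94.7, 1024 and 319.5, while Csf1r had 848.8, 1003, 525.8 and 786.4. Thus the low Ccr2 value of cancer control stood beside a higher macrophage sum, and the part of macrophage content in the receptor differences was not tested.

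Ccl6 and Ccl9, ligands of Ccr1 that are found in rodents, were likewise higher in the tumor libraries. The normalized read count was 973.1, 791.9, 1806 and 2150 for Ccl6 and 172.3, 223.7, 521.4 and 400.7 for Ccl9 in the 4 libraries. Ccl6 had a log2 fold change with the tumor of 0.89 without exercise (counting interval 0.77 to 1.01) and of 1.44 with exercise (counting interval 1.33 to 1.55). For Ccl9 the order was turned, with 1.59 without exercise (counting interval 1.34 to 1.86) and 0.84 with exercise (counting interval 0.61 to 1.07). Each passed 2-fold in 1 of the 2 tumor comparisons, and the difference between the comparisons was not tested. Ccl3, in the same cluster of chr11:83525778-83664683, had 1, 1, 3 and 8 reads.

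Ccl5, a ligand made by T cells and platelets, was lowest in cancer exercise. Its normalized read count was 23.4, 40.7, 32.1 and 8.73 in the 4 libraries. In tumor-bearing mice its log2 fold change with exercise was -1.77 (counting interval -3.23 to -0.73), and it was -2.10 with the tumor in exercised mice (counting interval -3.51 to -1.14). T cell markers had a summed normalized read count of 40.4, 58.4, 14.0 and 36.8, with Cd8a and Cd5 at 0 reads in every library. The T cell list was lowest in cancer control and Ccl5 was not. NK cell markers, another source of Ccl5, had 3.30, 21.7, 30.8 and 8.62, and their part in Ccl5 was not tested.

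Ccl11 and Ccl24, ligands of Ccr3 that attract eosinophils, were not called. Ccl11, or eotaxin, had a normalized read count of 603.2, 840.0, 489.5 and 569.9 in the 4 libraries. Ccl24 had 104.2, 63.1, 92.1 and 84.5. Neither passed 2-fold in any comparison, and Ccr3 had 0 reads in every library. Ccl17, a ligand of Ccr4 made by dendritic cells and keratinocytes, changed more. It had 1, 16, 21 and 0 reads, so that normal exercise and cancer control were the high libraries. It was higher in exercised healthy mice, with a log2 fold change of 2.74 (counting interval 0.92 to 9), and with the tumor without exercise, with 3.47 (counting interval 1.77 to 9.77). Cancer control was also the library with the highest keratinocyte sum. In cancer exercise Ccl17 was at least 6.92-fold lower than in cancer control and at least 3.99-fold lower than in normal exercise. Dendritic cell markers had a summed normalized read count of 39.3, 39.7, 35.4 and 48.6. Ccr4 had 2 reads, in cancer control.

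The Ccl21 genes, ligands of Ccr7, were lower with the tumor. Ccl21a, which guides lymphocytes and dendritic cells into lymphatic vessels and nodes, had a normalized read count of 225.4, 251.5, 44.0 and 69.4 in the 4 libraries. Ccl21b had 63.8, 95.9, 31.1 and 8.73, and Ccl21c had 24.4, 39.98, 10.8 and 2.23. For each of the 3 genes, both tumor libraries lay below both others. Over the 8 homeostatic CC ligands in the files, the median log2 fold change with the tumor was -0.925 without exercise and -1.9 with it, against -0.043 and -0.03 over all rows tested. Ccl21a was lower in cancer control than in cancer exercise, and Ccl21b and Ccl21c were lower in cancer exercise. The log2 fold change with the tumor without exercise was -2.33 for Ccl21a (counting interval -2.88 to -1.87), -1.01 for Ccl21b (counting interval -1.73 to -0.38) and -1.11 for Ccl21c (counting interval -2.43 to -0.06). With exercise it was -1.84 for Ccl21a (counting interval -2.27 to -1.47), -3.32 for Ccl21b (counting interval -4.71 to -2.44) and -3.67 for Ccl21c (counting interval -7.28 to -2.27). Ccl19, the other ligand of Ccr7, had 7, 9, 11 and 1 reads, and Ccr7 itself had 0, 4, 0 and 3 reads. Lymph node markers had a summed normalized read count of 30.6, 12.3, 3.24 and 3.34, also lower in both tumor libraries. That sum rests on few reads, 15, 15, 0 and 3 for Cr2 and 14, 0, 1 and 0 for Fcer2a. Glycam1 had 2 reads, in cancer control, and Madcam1 had 0 reads in every library. Exercise without a tumor went with a smaller sum, whereas none of the 3 Ccl21 genes had a smaller value there. The part of lymph node content in the Ccl21 values was not tested.

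Ccl27a, a ligand of Ccr10, was also lower with the tumor. Its normalized read count was 1043, 1012, 373.8 and 436.5 in the 4 libraries, with log2 fold changes of -1.48 (counting interval -1.66 to -1.30) without exercise and -1.21 (counting interval -1.38 to -1.05) with exercise. Il11ra1, whose 3' end overlaps that of Ccl27a on the opposite strand by 8 bases, had 3734, 3269, 1509 and 1893, in the same order of libraries. Ccl27b had 37.2, 30.9, 20.4 and 14.1, and in exercised mice its log2 fold change with the tumor was -1.07 (counting interval -2.16 to -0.19). Ccl28, a second ligand of Ccr10, had 6 reads in normal exercise and 0 elsewhere, and Ccr10 had 2 reads in normal exercise and 0 elsewhere. Keratinocytes are known to make CCL27, and the part of the keratinocyte genes in Ccl27a was not tested.

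Counts of these homeostatic ligands are uncertain because of near-identical copies on chromosome 4. Ccl27a, Ccl27b, Ccl19, Ccl21b and Ccl21a lie in chr4:41769467-42773991 (GRCm38). In the last 500 bases of its transcripts, Ccl21b shared 100% of its 75-base stretches, the read length, with each of Gm10591, Gm13304 and Gm21541, and 54.3% with Ccl21a. Ccl21a shared 68.5% with Gm13304. Ccl27b shared 98% with Gm13306, Ccl27a 41.7% with Gm13306 and Ccl19 63.8% with Gm2564. No result on shared stretches was obtained for Ccl21c, so whether its reads are separate from those of Ccl21b is not settled. How reads with several positions were counted is not given in the sources used here. Gm13306 had a normalized read count of 44.6, 34.9, 24.65 and 20.6, with the same order of libraries as Ccl27a except between cancer control and cancer exercise. Gm13304 and Gm21541 had 2 reads each, in normal exercise.

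Ccl25, a thymus and gut ligand, was highest in normal exercise. It had a normalized read count of 31.9, 88.5, 35.4 and 58.5 in the 4 libraries. It was higher with exercise in healthy mice, with a log2 fold change of 1.44 (counting interval 0.88 to 2.10), and had 0.71 in tumor-bearing mice (counting interval 0.08 to 1.4). Its 3' end overlaps Elavl1 on the opposite strand by 62 bases, and Elavl1 had 407.4, 423.9, 293.5 and 400.7. Ccr9, the receptor of Ccl25, had 0, 10, 11 and 8 reads, so that normal control was the low library for both. Ccr6 had 9, 0, 0 and 0 reads, while its ligand Ccl20 had none.

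**Figure D3:**
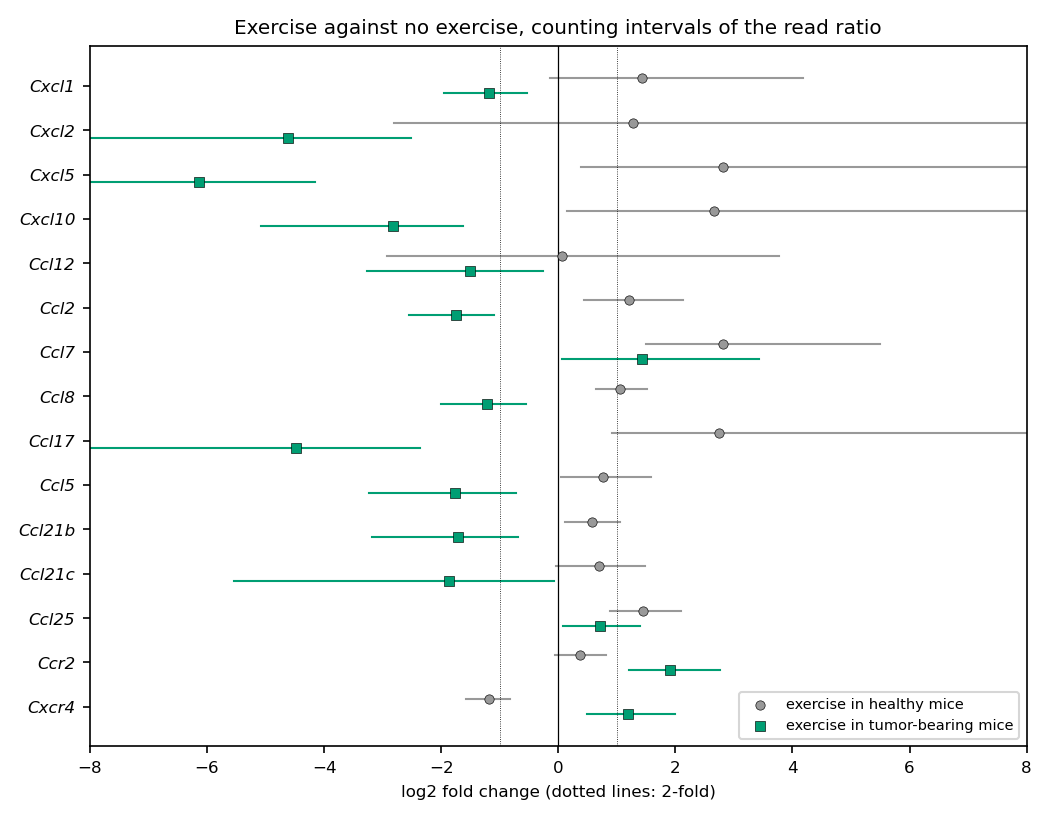
Log2 fold change with exercise, for healthy mice (circles) and in tumor-bearing mice (squares), for members shown in the plot of levels and called in at least 1 of the 2 comparisons, with lines for the 95% counting interval. Cxcl1, Cxcl5, Cxcl10, Ccl2, Ccl8 and Ccl17 lie right of 0 in healthy mice and left of 0 in tumor-bearing mice, Cxcr4 lies the other way, and Ccl7 lies right of 0 in both.

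Set side by side, several members differed with exercise one way in healthy mice and the other way in tumor-bearing mice. Of 9 members called in both comparisons, 8 had opposite signs. Among all rows called in both, 675 of 1307 (51.6%) had opposite signs. Ccl2 had log2 fold changes of 1.20 and -1.74, Ccl8 of 1.06 and -1.22, and Cxcl1 of 1.43 and -1.19, of which that of Cxcl1 in healthy mice had a counting interval that included no change (-0.14 to 4.18). Cxcl5, Cxcl10 and Ccl17 had few or 0 reads in normal control and in cancer exercise. For the tumor, 12 members were called both without and with exercise, and 9 of them had the same sign, Ccl12, Ccl21a, Ccl21b, Ccl21c, Ccl27a, Cxcl1, Cxcl9, Cxcl13 and Ccr1. The opposite ones were Cxcl5, Ccl17 and Cxcr6, against 507 of 2606 rows (19.5%) of all rows called in both.

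Some other ligands and scavenging receptors of the chemokine system also differed. Of 11 such genes in the files, with the tumor without exercise 4 of 10 tested were higher and 0 were lower (20.9% and 24.2% over all rows), with a median log2 fold change of 0.772 against -0.043 over all rows tested. Pf4 and Ackr3 had the highest levels of the list and were not called in any comparison. The normalized read count was 895.4, 864.3, 1530 and 1015 for Pf4 and 592.5, 473.4, 951.1 and 576.2 for Ackr3 in the 4 libraries. Ackr1, which binds chemokines on venules and red cells, had a normalized read count of 127.6, 63.9, 336.3 and 362.8 in the same order. Ccrl2, which presents chemerin, had 92.5, 45.3, 200.1 and 46.6. Cx3cr1, the fractalkine receptor of patrolling monocytes, had 14.9, 63.5, 32.1 and 15.2. Hence Ackr1 was higher in both tumor libraries, Ccrl2 was highest in cancer control and Cx3cr1 in normal exercise. With exercise in tumor-bearing mice 1 of 10 was higher and 4 were lower (15.6% and 15.1% over all rows), and with the tumor in exercised mice 2 of 11 were higher and 4 were lower (13.9% and 16.3%). With exercise in healthy mice 2 of 11 were higher and 3 were lower (9.44% and 12.1%).

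Genes that act downstream of the receptors were mostly not called. Of 15 such genes in the files, 14 were tested in each comparison, and 1 was higher and 2 were lower with the tumor without exercise (20.9% and 24.2% over all rows), with a median log2 fold change of 0.373 against -0.043 over all rows tested. The same counts held for exercise in healthy mice (9.44% and 12.1% over all rows). For exercise in tumor-bearing mice 2 were higher and 2 were lower (15.6% and 15.1%), and for the tumor in exercised mice 0 were higher and 1 was lower (13.9% and 16.3%). Pik3cg, a kinase of chemokine-driven migration, had a normalized read count of 40.2, 5.55, 2.19 and 7.63. Gnai2, the main inhibitory G protein of leukocytes, had 3226, 3278, 3550 and 2938 and was not called.

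Genes that induce chemokines were higher with the tumor without exercise. Of 16 listed, 10 were tested, and 7 were higher and 1 was lower (20.9% and 24.2% over all rows), with a median log2 fold change of 1.34 over those with reads, against -0.043 over all rows tested. Il1b, an inducer of Cxcl1, Cxcl2 and Cxcl5, had 0, 21, 54 and 5 reads in the 4 libraries. Nfkbia, the NF-kappaB inhibitor that NF-kappaB itself induces, had a normalized read count of 1481, 1595, 6413 and 4362, and Cebpd had 628.5, 480.7, 7648 and 4281. Thus Il1b was low again in cancer exercise, whereas Nfkbia and Cebpd were high in both tumor libraries. Ifng, Il17a and Csf2 had 0 reads in every library. With exercise in tumor-bearing mice 0 of 10 were higher and 1 was lower, Il1b (15.6% and 15.1% over all rows). In healthy mice 1 of 11 was higher, again Il1b, and 0 were lower (9.44% and 12.1%). In exercised mice 3 of 11 were higher with the tumor and 2 were lower (13.9% and 16.3%).

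**Figure D4:**
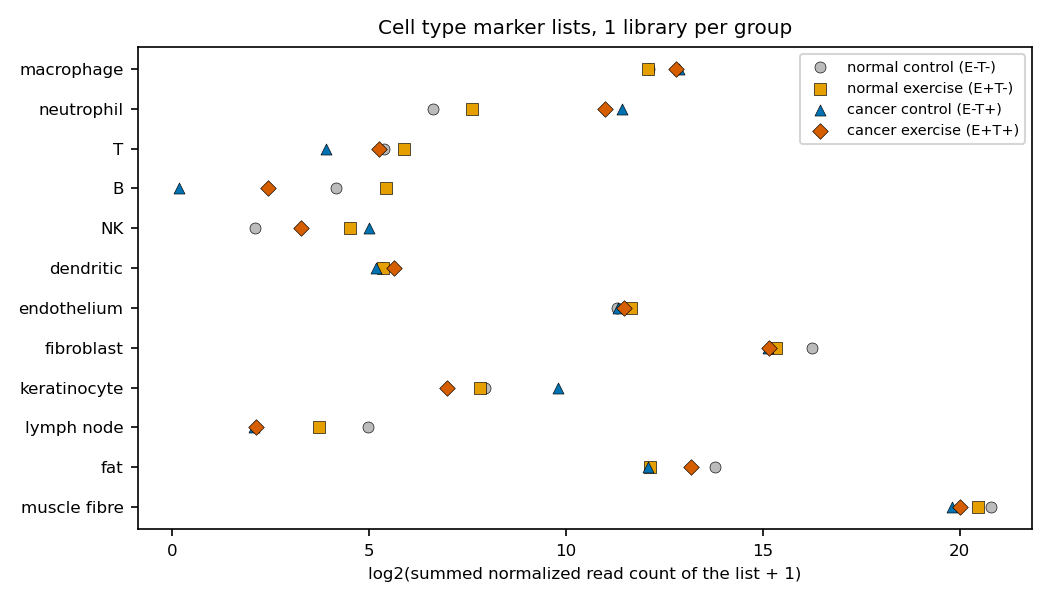
Summed normalized read count of each cell type marker list, 1 point per library, on a log2(sum + 1) axis. Neutrophil markers are higher in both tumor libraries (2730 and 2046, against 98.2 and 195.7), keratinocyte markers are highest in cancer control (884.7), and B cell markers are near 0 there.

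Muscle fibre markers, the defining genes of the tissue, had the highest sums of all lists in every library, as the plot of marker lists shows. The sums were 1836000, 1444000, 921800 and 1064000 in the 4 libraries, and all 10 genes had reads in each. Endothelial markers had a summed normalized read count of 2498, 3240, 2578 and 2866, but single genes went different ways. Kdr had 528.7, 741.9, 270 and 261.1 and was called lower with the tumor in exercised mice. Vwf had 81.9, 109.4, 167.1 and 223.1 and was called higher in both tumor comparisons. The other listed endothelial markers were not called. Fat markers had a summed normalized read count of 14240, 4492, 4351 and 9302. The 4 libraries thus differed in their fat, fibroblast and muscle fibre sums as well as in immune genes, and the part of these sums in the chemokine values was not tested.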

How the data were processed

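Libraries were made by the authors with the QuantSeq 3' mRNA kit from Trizol-extracted RNA and read as single 75-base ends. The submitters' processing notes name Bowtie2, Bedtools and mm10. Annotation, strand and multi-mapping settings are not given in the sources used here. The deposited values are log2(normalized read count + 1), in 1 column per library, which the authors adjusted between libraries. Groups came from the sample titles.

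Whole read counts were rebuilt from the steps of the deposited log2 values, with 1 effective size per library and a dispersion of 0.34. All values (100%) came within 0.0006 of the value of a whole count, and 94.9 to 96.2% of values were tied to 1 count. The rebuilding was tested on simulated data. The reads served for totals, counting intervals and scaling, and no count test was run, as each group had 1 library. The floor of 3 reads was 2.27e-05 to 2.82e-05% of a library. Intervals and floors cover counting error only, since reads without molecular identifiers are not independent molecules. Of 23282 rows, 6694 had no reads in any library and 79 shared a symbol.

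A row was called at 2-fold where either library compared had a normalized read count of 4 or more, a threshold taken from the methods of the paper. Members reaching a normalized read count of 16 in some library were named individually, and others where they were receptors or ligands of these. The 4 comparisons were exercise in healthy mice (E+T- minus E-T-), tumor without exercise (E-T+ minus E-T-), exercise in tumor-bearing mice (E+T+ minus E-T+) and tumor with exercise (E+T+ minus E+T-). Members and lists were chosen with earlier results of these data known. Alternatives were a pseudocount of 4, no minimum, a minimum of 16, and total count and median-of-ratios scaling. Python 3.11.15, numpy 2.4.6, scipy 1.17.1, pandas 2.3.3 and matplotlib 3.10.9 were used. Gene positions and 3' ends came from GENCODE vM21 and promoters from RefSeq, both on GRCm38. The marker lists held macrophage, neutrophil, T, B, NK, dendritic, endothelial, fibroblast, keratinocyte, lymph node, fat and muscle fibre genes. A few results, among them those of 1 member, are not reported here, although the counts include them.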

Additional observations from a re-analysis of the deposited data

Results flagged for a closer look

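For 8 members, exercise went with a change past 2-fold on the log2(normalized read count + 1) scale in one direction in healthy mice and in the other in mice with the tumor. With 1 library per group the difference between the 2 changes was not tested. It is given as the log2 fold change with exercise in mice with the tumor less the one in mice without it, and uses all 4 libraries. It was 2.37 for Cxcr4, -2.94 for Ccl2, -2.28 for Ccl8 and -2.62 for Cxcl1. For 4 members with 0 reads in at least 1 library, the value depends on the pseudocount and is no bound. These were Cxcl5 with -8.95, Cxcl10 with -5.49, Ccl17 with -7.22 and Cxcr6 with 5.02. Against the floor of 3 reads, Cxcl10 in healthy mice was at least 1.78-fold higher and Cxcr6 in mice with the tumor at least 1.35-fold higher, both short of 2-fold. Cxcr6 had at most 5 reads in any library. The cancer control library, which held reads of all 11 keratinocyte markers, enters each of these values.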

How the results depend on the processing

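The 8 counts of members called (higher and lower in each of the 4 comparisons) stayed within 1.5 times the reported count with a pseudocount of 4, with no minimum, with total count scaling, with median-of-ratios scaling and when the counting interval also had to exclude no change, the last chosen after seeing the data. A minimum normalized read count of 16 moved 5 of the 8. For exercise in healthy mice it left 4 higher in place of 11 and 1 lower in place of 4. For exercise in tumor-bearing mice it left 4 higher in place of 7, and for the tumor in exercised mice 4 higher in place of 9 and 8 lower in place of 14. This alternative tests fewer members by its construction. None of the 120 log2 fold changes of members at 16 or above changed sign after being called, and 9 moved beyond their counting interval under total count scaling, in Ccl6, Ccl11, Ccl27a, Cxcl12 and Cxcl14. Total count scaling shifted the median of all rows by 0.16 for exercise in healthy mice and by -0.155 for the tumor in exercised mice, and the calls over all rows became 1685 higher and 1502 lower, in place of 1371 and 1750, and 1702 higher and 2798 lower, in place of 2014 and 2364. No paired analysis was possible because each group had 1 library. Members with few reads, such as Cxcr6, Ccr6, Cxcl9 and Cxcr3, had wide or one-sided intervals.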
